A study of Mus musculus with 6 samples.

Results

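Splicing factors and the kinases that phosphorylate them were compared between the livers of progeroid and control mice. The members were 89 genes on 110 probe sets with a single annotated symbol, of 19938 such genes on 21789 probe sets. The table holds 35512 probe sets in all. They were chosen by name: SR proteins (Srsf, 10 genes), heterogeneous nuclear ribonucleoproteins (Hnrnp, 17), CDC-like kinases (Clk, 3), subunits of splicing factors 3A and 3B (Sf3a and Sf3b, 9), subunits of U2AF (U2af, 3), PRP factors (Prpf, 12) and numbered RNA-binding motif genes (Rbm, 35). Another 22 probe sets that pair a matching symbol with a second one, such as those of Hnrnpa1, Hnrnpa3 and Clk2, were left out by this rule. The liver RNA came from 3 mice homozygous for the LmnaG609G knock-in allele and 3 wild-type mice, 1 array per mouse. By their replicate numbers the mice are called KI1, KI3 and KI5 and WT2, WT4 and WT6 here, and values are given in that order. All were females on the C57BL/6 background, 3 months old, that had gone without food for 6 h. The G609G allele is carried in the germline, so every liver cell of the knock-in mice holds it. It leaves the encoded amino acid unchanged, activates a hidden splice site in Lmna, and is a model of Hutchinson-Gilford progeria.

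Splicing removes introns from new transcripts in a series of assembly steps. The U2AF heterodimer and the SF3 complexes of the U2 small nuclear ribonucleoprotein mark the 3 prime splice site and the branch point, and PRP factors build and drive the catalytic spliceosome. SR proteins mostly promote and hnRNP proteins often repress the use of exons, and the CLK kinases set the activity of SR proteins by phosphorylating their arginine-serine domains. SR proteins, SRSF1 and SRSF6 among them, are known to influence how often the hidden splice site of Lmna is used. The arrays give 1 value per probe set and gene, so they show the amount of each factor's RNA and not how any transcript was spliced.

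Intensities were linear and in whole numbers, from 7 to 24988, with array medians between 97.0 and 104. Lmna, the altered gene, read 290, 249 and 258 against 282, 267 and 362 in wild-type controls, with no called difference (log2 change -0.17 ± 0.13, SE, n = 3 and 3; limma adjusted p = 0.398), and this probe set does not separate its splice forms. Hepatocyte markers identified the tissue as labelled, with 11 of 12 measured and summed intensities of 117299 to 128811 in knock-in and 122968 to 126601 in wild-type mice. Of them 1 (Hnf4a) was called higher and 3 lower. Summed markers of Kupffer cells and macrophages (12 genes, 1 called lower) were 4106 to 7287 in knock-in and 6250 to 11009 in wild-type mice. Those of sinusoidal endothelium (10 genes, 4 lower and 1 higher) were 6157 to 8067 and 7361 to 8001, and those of stellate cells and fibroblasts (10 genes, 1 higher and 1 lower) 8002 to 9459 and 7223 to 8248. Lymphocyte markers (10 genes, 7 tested, 1 lower) summed to 662 to 766 and 771 to 890. Neutrophil markers (10 genes, 8 tested, 3 higher) summed to 693 to 702 and 516 to 581, including 2 genes too dim to be tested. The tested neutrophil markers were dim too, with mean intensities of 40 to 106, and 1 was called higher past 1.5-fold. With the filter at the 50th percentile, 1 neutrophil marker was tested and 0 were called higher. Markers of cholangiocytes (6 genes, 5 tested, 0 called) summed to 460 to 507 and 453 to 477, and erythroid markers (3 genes, 1 lower) to 314 to 435 and 473 to 612. Counts of lower markers changed when a mouse was left out: 0 hepatocyte markers were lower without KI1, WT2 or WT6 and 0 endothelial ones without WT2 or WT6. For macrophages 0 were lower without KI1, KI5, WT2 or WT4 and 3 without KI3 or WT6. Over all probe sets, 2913 were called lower with all mice, 1810 without KI1, 1889 without WT2 and 3456 without KI3. No marker was listed at 0, and the part of these cell types in the results below was not tested. In bulk liver RNA, fewer cells of a type and less RNA per cell cannot be told apart.

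RNA of splicing genes was mostly higher in knock-in liver where it differed. The members were chosen with earlier results of these data known, so their counts are descriptions. Of 86 member genes tested, 30 rose, 1 fell (Rbm47) and 55 did not pass, where a gene was called at a limma adjusted p below 0.05. Over all 26664 probe sets tested, 15% were called higher and 10.9% lower, and over 16148 genes each represented by its brightest probe set, 13.0% and 13.7%. Among the members 34.9% were called higher and 1.16% lower. The class shares below are of genes by their brightest probe set and are set beside the shares of all probe sets. The median log2 change of the members was 0.25, against 0.03 over all probe sets, and 70 of the 86 lay above 0. Members were brighter than most probe sets, with a median of the mean intensities of 580 against 182. In a fit restricted to the brighter 17761 probe sets, 20.9% were called higher and 16.3% lower, and 33 of 82 members tested were higher and 2 lower. With each array centred on its median, the share of all calls that were higher went from 57.8% to 47.8% (11.8% of probe sets higher, 12.8% lower), and 25 members were higher and 2 lower. The changes were small: 16 of the 31 called members changed by at least 1.5-fold and 2, Rbm3 and Rbm47, by at least 2-fold. Past 1.5-fold, 15 members were higher and 1 lower, against 7.83% and 6.65% of all probe sets. Every knock-in value lay above every wild-type value for 45 of the 86 genes and below it for 3, against 24% and 17.2% of all probe sets (41.2% in either direction). Without KI3, 2 members fell, the second being Rbm15. Of the 31 calls, 21 held with each mouse left out in turn.

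**Figure D1:**
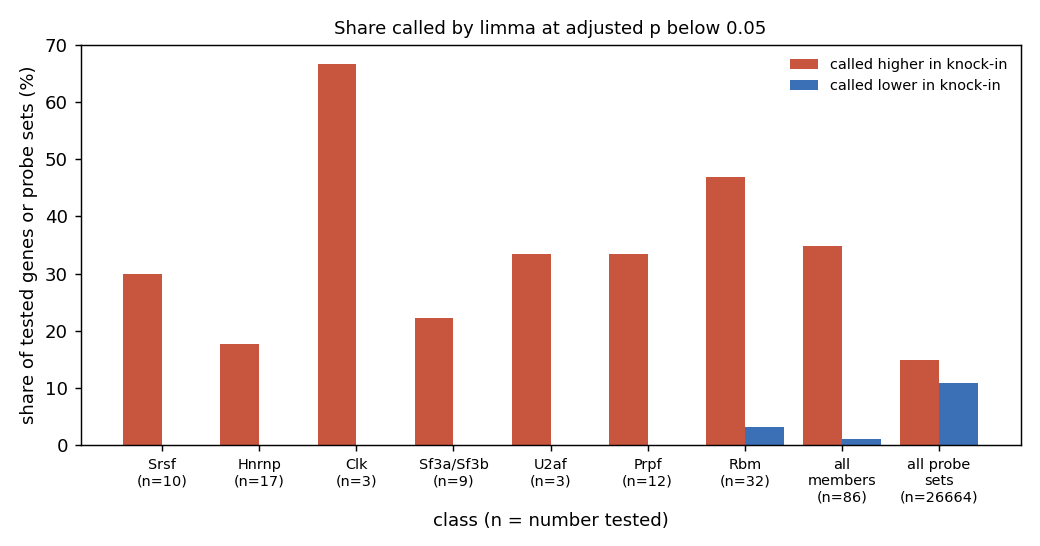
Share of tested genes in each class called higher (red) or lower (blue) in knock-in liver at a limma adjusted p below 0.05, with all members and all 26664 probe sets at the right. The red bars run from 17.6% (Hnrnp) to 66.7% (Clk, 3 genes) against 15% of all probe sets, and only the Rbm class has a blue bar.

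**Figure D2:**
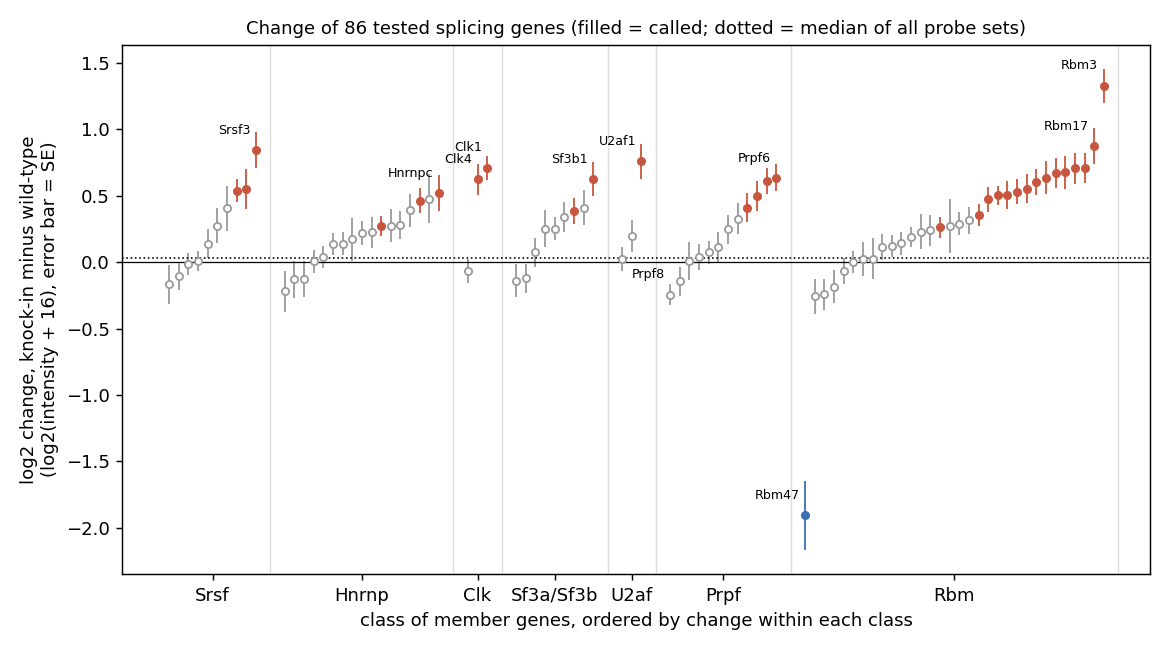
Log2 change of each of the 86 tested members (knock-in minus wild-type, error bars SE, 3 mice per genotype), ordered within its class, with called genes filled and the median of all probe sets dotted. Of the 86 points 70 lie above 0, Rbm3 is the highest at 1.33 and Rbm47 the lowest at -1.91.

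Promoters are shown for 5 members. These had the largest rise in their class among called genes with a single probe set and a single listed start. Whether the value of a probe set comes from that start was not tested. The promoters are the 250 bases before the RefSeq start on GRCm38.p6, read 5 prime to 3 prime on the gene's strand. Capitals mark any match, on either strand, to the heat shock element core GAANNTTC, the cAMP response element TGACGTCA, the E-box CACGTG, the GC box GGGCGG or the CCAAT box CCAAT.
Clk4, chr11:51262864-51263113, strand +: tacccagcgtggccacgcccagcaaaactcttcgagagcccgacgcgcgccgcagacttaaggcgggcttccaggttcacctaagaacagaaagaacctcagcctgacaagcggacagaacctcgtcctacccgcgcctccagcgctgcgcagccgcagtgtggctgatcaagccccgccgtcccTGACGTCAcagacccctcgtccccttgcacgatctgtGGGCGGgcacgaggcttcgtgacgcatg
Rbm17, chr2:11603200-11603449, strand -: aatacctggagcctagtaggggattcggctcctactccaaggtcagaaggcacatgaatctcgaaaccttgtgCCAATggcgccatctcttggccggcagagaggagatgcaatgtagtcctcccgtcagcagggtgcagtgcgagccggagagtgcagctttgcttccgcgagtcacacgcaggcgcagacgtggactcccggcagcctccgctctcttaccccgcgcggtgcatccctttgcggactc
Prpf6, chr2:181601069-181601318, strand +: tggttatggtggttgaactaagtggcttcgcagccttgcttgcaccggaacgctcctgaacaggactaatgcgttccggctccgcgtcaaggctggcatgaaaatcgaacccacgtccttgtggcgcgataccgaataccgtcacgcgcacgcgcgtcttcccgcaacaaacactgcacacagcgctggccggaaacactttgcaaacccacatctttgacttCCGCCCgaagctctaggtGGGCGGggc
Sf3b1, chr1:55027479-55027728, strand -: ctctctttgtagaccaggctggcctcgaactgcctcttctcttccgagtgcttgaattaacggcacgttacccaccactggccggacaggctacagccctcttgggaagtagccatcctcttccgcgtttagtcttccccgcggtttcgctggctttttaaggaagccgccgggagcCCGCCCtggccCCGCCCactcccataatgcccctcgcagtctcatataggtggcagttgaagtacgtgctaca
Hnrnpc, chr14:52104022-52104271, strand -: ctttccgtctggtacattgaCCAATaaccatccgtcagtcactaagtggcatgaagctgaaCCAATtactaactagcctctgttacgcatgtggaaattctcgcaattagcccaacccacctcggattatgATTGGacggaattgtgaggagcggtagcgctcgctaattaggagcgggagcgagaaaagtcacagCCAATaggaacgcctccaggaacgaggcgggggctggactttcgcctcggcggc
The Clk4 promoter holds TGACGTCA once, a motif found in 1.55% of 32851 promoters of this length and in no other of the 74 member genes with a sequence. GC boxes stand in the promoters of Clk4, Prpf6 and Sf3b1 and CCAAT boxes in those of Rbm17 and Hnrnpc, the latter with 4. These motifs are common, in 35.4% and 37.5% of 27025 genes, counting a gene with the motif in any of its listed promoters. Of the 74 member genes with a sequence, 43 had a GC box, 34 a CCAAT box, 10 an E-box and 6 a heat shock element core. Of the 24 of them called higher, 12, 13, 2 and 0 had these motifs in the same order, and 6.86% of all genes had an E-box and 7.73% a heat shock element core. A match is a run of letters and was not tested as a binding site.

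The CLK kinases Clk1 and Clk4 rose and Clk3 did not pass. Clk1 read 1721, 1608 and 1700 in knock-in and 955, 1064 and 1037 in wild-type mice, a log2 change of 0.71 ± 0.09 (1.64-fold; SE over 3 mice of each genotype; limma adjusted p = 0.00196). All 3 knock-in values were above all wild-type values and the mice of each genotype lay close together. Clk4, the closest relative of Clk1, read 1709, 1502 and 1531 against 1105, 878 and 1091, a log2 change of 0.62 ± 0.12 (1.54-fold, adjusted p = 0.00887), again without overlap. Clk3 read 856, 854 and 773 against 885, 878 and 839, so the genotypes overlapped, with a 95% interval of the log2 change from -0.28 to 0.15. Both called kinases kept their call under all 16 refits. Transcripts of Clk1 and Clk4 are known to be held in the nucleus with retained introns, and a gene-level probe set does not tell these from spliced forms.

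Among SR proteins, 3 of 10 rose (Srsf3, Srsf10 and Srsf11), 0 fell and 7 did not pass. The share that rose was 30%, against 15% of all probe sets called higher and 10.9% lower. Of the 10, 4 had an unadjusted p below 0.05, near the share of all probe sets (10087 of 26664). Srsf3, the smallest SR protein, which acts in splicing and mRNA export, read 1806, 1531 and 1703 in knock-in and 872, 825 and 1110 in wild-type mice, changing by 0.84 ± 0.13 on the log2 scale (1.79-fold; limma adjusted p = 0.00444). Its genotypes did not overlap, and WT6 was the highest of the controls. A second probe set for Srsf3 also rose (log2 change 0.76), while the dimmest read 125, 59 and 103 against 48, 44 and 75, overlapped and did not pass (log2 change 0.62, adjusted p = 0.114). Which of the 3 probe sets reads Srsf3 itself and which a related copy was not tested, so its size of change is uncertain. Srsf11, an SR-related factor, read 923, 935 and 930 against 615, 635 and 657, a log2 change of 0.54 ± 0.09 (adjusted p = 0.0045). The 3 knock-in values were nearly equal and all above the controls. Srsf10, which turns into a general splicing repressor when it loses its phosphates, read 1724, 1356 and 1468 against 1099, 843 and 1157 (log2 change 0.55 ± 0.15, adjusted p = 0.0316). That call was lost with KI1, KI5, WT2 or WT4 left out (adjusted p = 0.0642 to 0.114) and on centred arrays (adjusted p = 0.0645). It was also lost for the mean of the Srsf10 probe sets (adjusted p = 0.0653). The second of them, at 49 to 78 in all mice, did not pass, and which of them reads Srsf10 itself was not tested.

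The SR proteins tied to Lmna splicing did not pass. Srsf1, which favours the hidden splice site of Lmna, read 468, 566 and 422 in knock-in and 545, 474 and 621 in wild-type mice, with overlapping groups and a log2 change of -0.17 ± 0.15 (95% interval -0.51 to 0.17; limma adjusted p = 0.461). Srsf6 read 1427, 1576 and 1115 against 1147, 1084 and 1129, a log2 change of 0.28 ± 0.14 (adjusted p = 0.184). KI5 lay within the wild-type range there, and without it Srsf6 was called higher (log2 change 0.42, adjusted p = 0.0335). Srsf5 read 1602, 1249 and 1467 against 1389, 947 and 952 (log2 change 0.40 ± 0.17, adjusted p = 0.131), and was called higher without WT2, the highest control (log2 change 0.58, adjusted p = 0.0344). Srsf2, one of the founding SR proteins, read between 1718 and 1837 in all 6 mice (log2 change -0.02 ± 0.08, 95% interval -0.20 to 0.17). Srsf4 (log2 change 0.14 ± 0.11), Srsf9 (-0.10 ± 0.10) and the dim Srsf12 (51 to 61 in all mice, 0.01 ± 0.08) also overlapped between the genotypes.

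**Figure D3:**
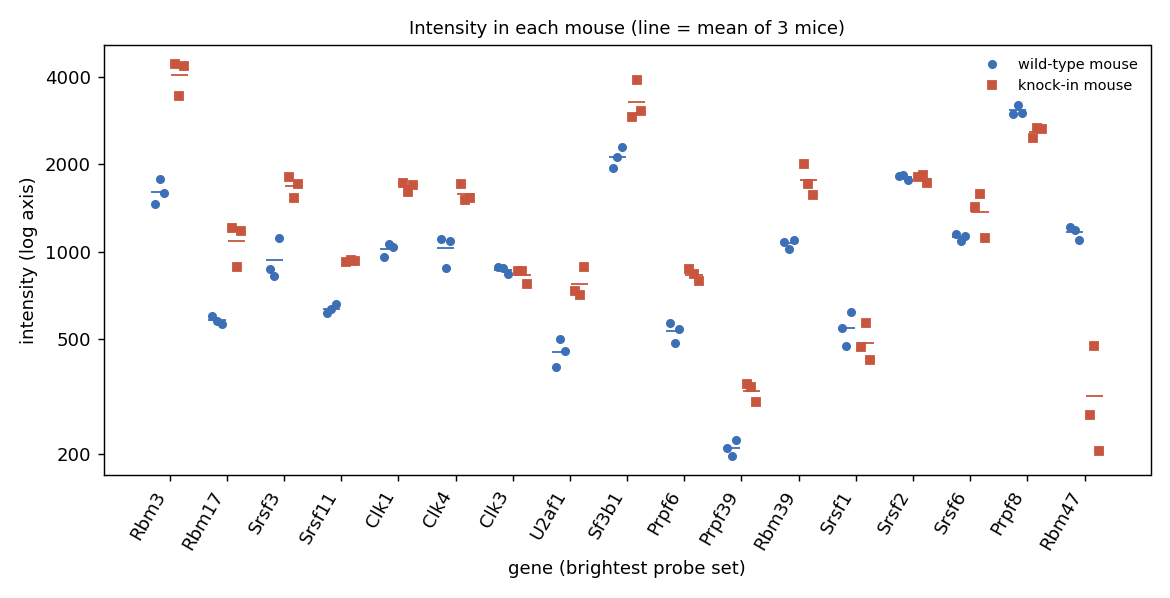
Intensity (log axis) of 17 members in each of the 3 wild-type (blue circles) and 3 knock-in mice (red squares), with lines at the means. The genotypes are separate for Rbm3, Rbm17, Srsf3, Srsf11, Clk1, Clk4, U2af1, Sf3b1, Prpf6, Prpf39, Rbm39, Prpf8 and Rbm47 and overlap for Clk3, Srsf1, Srsf2 and Srsf6.

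Of the U2AF subunits, which define the 3 prime splice site, 1 of 3 rose (U2af1) and 0 fell, against 15% of all probe sets called higher and 10.9% lower. U2af1, which reads the AG at the end of the intron, was 729, 706 and 888 in knock-in and 399, 501 and 453 in wild-type mice, changing by 0.76 ± 0.13 on the log2 scale (1.69-fold; limma adjusted p = 0.0059). Every knock-in value was above every control, and the second U2af1 probe set, which lists the same transcripts, read nearly the same values. The 2 may share signal, and which of them reads U2af1 itself was not tested. Its partner U2af2, which binds the pyrimidine tract, read 698, 640 and 780 against 633, 540 and 667 (log2 change 0.20 ± 0.12, 95% interval -0.09 to 0.48, adjusted p = 0.285), and the small subunit's relative U2af1l4 overlapped between the genotypes (log2 change 0.02 ± 0.09). Whether the subunits differ from each other in their change was not tested.

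In the SF3A and SF3B complexes 2 of 9 genes rose (Sf3b1 and Sf3b4) and 0 fell. The share that rose was 22.2%, against 15% of all probe sets called higher and 10.9% lower, and 13.0% and 13.7% of all genes. With the filter at the 50th percentile, 3 of 9 rose, against 20.9% of the brighter probe sets. In the main fit an unadjusted p below 0.05 was found for 5 genes (10087 of 26664 of all probe sets). Of the 9, 6 lay wholly above the controls (24% of all probe sets). Sf3b1, the subunit that clamps the branch point helix, read 2912, 3893 and 3061 in knock-in and 1934, 2112 and 2301 in wild-type mice, changing by 0.62 ± 0.13 on the log2 scale (1.54-fold; limma adjusted p = 0.012). KI3 was the highest and the groups did not overlap. Sf3b4 read 341, 343 and 349 against 244, 291 and 247 (log2 change 0.39 ± 0.10, adjusted p = 0.0269). Its call was lost without KI1, KI5, WT2 or WT6 (adjusted p = 0.0671 to 0.104), which left 1 called gene in the class. A dimmer Sf3b4 probe set did not pass (log2 change -0.05), and for the mean of both the call was lost too (log2 change 0.17, adjusted p = 0.205). Which of them reads Sf3b4 itself was not tested. The genes just short of the threshold were Sf3a2 (0.41 ± 0.13, adjusted p = 0.0563), Sf3b3 (0.34 ± 0.11, adjusted p = 0.0649) and Sf3b2 (0.25 ± 0.09, adjusted p = 0.0716). Sf3a2 and Sf3b3 were called higher without KI3 (adjusted p = 0.0166 and 0.0339), which made 4 in the class, and all 3 with eBayes without trend, which made 5. Sf3a3 (0.25 ± 0.14), Sf3b6 (0.07 ± 0.11), Sf3a1 (-0.14 ± 0.12) and Sf3b5 (-0.12 ± 0.11) did not pass.

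PRP factors rose in 4 of 12 cases (Prpf6, Prpf39, Prpf38b and Prpf18) and 0 fell. The share that rose was 33.3%, against 15% of all probe sets called higher and 10.9% lower. Prpf6, which bridges the U5 and the U4/U6 particles of the tri-snRNP, read 869, 835 and 793 in knock-in and 566, 484 and 543 in wild-type mice, changing by 0.64 ± 0.10 on the log2 scale (1.55-fold; limma adjusted p = 0.00431). Prpf39, a partner of the U1 particle, read 349, 340 and 304 against 211, 198 and 224, a log2 change of 0.61 ± 0.10 (adjusted p = 0.00447). Neither overlapped between the genotypes. Prpf38b (0.50 ± 0.11) and Prpf18, which acts at exon joining (0.41 ± 0.11), rose less. The first lost its call without KI1 (adjusted p = 0.0678), and Prpf18 lost it without KI1, KI5, WT4 or WT6 (adjusted p = 0.0695 to 0.111) and with centred arrays (adjusted p = 0.0704), so 2 of the class were called without KI1. Prpf8, the U5 protein at the heart of the catalytic centre, lay the other way. It read 2463, 2656 and 2635 against 2982, 3199 and 3012, with all knock-in values below all controls and a log2 change of -0.24 ± 0.08 (adjusted p = 0.0582) that did not pass but was called lower with centred arrays (adjusted p = 0.027), array weights (adjusted p = 0.0308) or a higher filter, at the 50th percentile (adjusted p = 0.0488). The kinase Prpf4b read 648, 668 and 544 against 676, 669 and 709 without passing (log2 change -0.14 ± 0.11, adjusted p = 0.388). Its knock-in values were below the controls, but KI3 and WT4 were almost equal. Prpf38a (0.33 ± 0.12), Prpf4 (0.25 ± 0.11) and the ubiquitin ligase Prpf19 (0.11 ± 0.11) did not pass, nor did Prpf3, Prpf31 and Prpf40b, whose log2 changes were 0.07, 0.01 and 0.04.

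Among hnRNP proteins 3 of 17 genes rose (Hnrnpc, Hnrnpa0 and Hnrnpk), 0 fell and 0 were called past 1.5-fold. The share that rose was 17.6%, close to the 15% of all probe sets. For 9 of the 17, every knock-in value lay above every wild-type value (24% of all probe sets), and 14 had a change above 0. The median log2 change was 0.22, against 0.03 over all probe sets. Hnrnpc, which binds uridine runs, read 490, 427 and 468 in knock-in and 304, 272 and 382 in wild-type mice, a log2 change of 0.52 ± 0.14 (limma adjusted p = 0.0285). Hnrnpa0 read 340, 377 and 347 against 237, 254 and 269 (0.46 ± 0.09, adjusted p = 0.0116). Hnrnpk, a binder of cytidine runs and the brightest member, read 5380, 4874 and 5009 against 4369, 4018 and 4251 (0.27 ± 0.08, adjusted p = 0.0356). Its other 2 probe sets rose alike (0.29 and 0.33), and which probe set reads Hnrnpk itself was not tested. Each of the 3 genes lost its call with some mouse left out. That of Hnrnpc was lost without KI1, KI5, WT2 or WT4 (adjusted p = 0.0717 to 0.0992), that of Hnrnpk without any 1 mouse other than KI3 (adjusted p = 0.0728 to 0.126), and that of Hnrnpa0 without WT2 (adjusted p = 0.0506), where 0 of the class were called. With KI1, KI5 or WT4 left out 1 was called, and with centred arrays also 1, those of Hnrnpc (adjusted p = 0.0544) and Hnrnpk (adjusted p = 0.104) being lost. Hnrnpd, which directs decay of AU-rich mRNA, read 1309, 1070 and 1140 against 1009, 792 and 878 without passing (0.39 ± 0.13, adjusted p = 0.0586), and was called without KI3 (adjusted p = 0.042). Hnrnpm (0.48 ± 0.18) and Hnrnpll (0.28 ± 0.11) did not pass. The core hnRNP gene Hnrnpa2b1 read 948 to 1035 in all 6 mice (log2 change 0.00, 95% interval -0.20 to 0.21) and the nuclear scaffold gene Hnrnpu had a log2 change of 0.22 ± 0.12. All 4 probe sets of Hnrnpf lay within 0.04 to 0.06. Hnrnpul2 (-0.22 ± 0.15), Hnrnph1 (-0.13 ± 0.14) and Hnrnpl (-0.13 ± 0.14) were the 3 with a negative change, and each overlapped. The remaining genes Hnrnpab, Hnrnpdl, Hnrnph2, Hnrnpr and Hnrnpul1 had log2 changes of 0.14 to 0.27 and did not pass.

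The numbered Rbm genes hold the largest changes in both directions. Of 32 tested, 15 rose (46.9%, against 15% of all probe sets), 1 fell (3.1%, against 10.9%) and 16 did not pass. The class is held together by its name and, for most genes, by an RNA recognition motif. It includes genes that act outside splicing and counts the opposite-strand transcript Rbm3os as a gene. Rbm3, a cold-inducible RNA-binding protein that supports translation, read 4424, 3440 and 4356 in knock-in and 1453, 1776 and 1592 in wild-type mice, changing by 1.33 ± 0.13 on the log2 scale (2.51-fold; limma adjusted p = 0.000818). KI3 was the lowest of its group and still well above the highest control. All 3 probe sets of Rbm3 rose, by 1.29 to 1.36, but which of them reads Rbm3 itself was not tested. Rbm3os, a separate transcript from the opposite strand, read 71 to 94 in all mice (log2 change 0.11 ± 0.10). Rbm47, an RNA-binding cofactor of the enzyme that edits apolipoprotein B mRNA, was the member that fell. It read 273, 473 and 206 in knock-in and 1219, 1190 and 1097 in wild-type mice, a log2 change of -1.91 ± 0.26 (3.75-fold lower, adjusted p = 0.00259). The wild-type mice lay close together, KI3 was the nearest to them, and without it the Rbm47 log2 change was -2.22.

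Several Rbm genes with a part in the spliceosome rose. Rbm17, which acts in the choice of 3 prime splice sites, read 1206, 883 and 1173 in knock-in and 601, 578 and 564 in wild-type mice, changing by 0.87 ± 0.13 on the log2 scale (1.83-fold; limma adjusted p = 0.00391). Rbm22, which contacts the catalytic RNA core, read 990, 774 and 944 against 555, 527 and 550 (0.71 ± 0.12, adjusted p = 0.0049). Rbm39, a relative of U2AF and a coactivator, read 2007, 1712 and 1567 against 1079, 1021 and 1100 (0.71 ± 0.11, adjusted p = 0.00436). None of these overlapped, and KI3 was the lowest of its group for the first 2. Rbm41, a factor of the minor spliceosome, was dimmer and tight, at 158, 160 and 164 against 106, 111 and 109 (0.50 ± 0.07, adjusted p = 0.00324). Rbm18 read 657, 632 and 691 against 403, 414 and 472 (0.60 ± 0.10, adjusted p = 0.0053). Rbm25, a U1-associated factor, rose in its brightest probe set (0.36 ± 0.08, adjusted p = 0.0185) and a second, while the other 2 of its 4 probe sets did not pass (adjusted p = 0.0768 and 0.0841, knock-in values above the controls in both). That call was lost without KI1, WT2 or WT6 (adjusted p = 0.0561 to 0.069). The other 8 called genes, named here after their values were seen, were Rbm34 (0.68), Rbm4b (0.67), Rbm48 (0.63), Rbm6 (0.55), Rbm27 (0.53), Rbm7 (0.51), Rbm28 (0.47) and Rbm46 (0.26). Rbm48 is a factor of the minor spliceosome, Rbm7 and Rbm27 serve nuclear RNA decay, and Rbm28 and Rbm34 are nucleolar proteins. The call of Rbm7 was lost without KI1 (adjusted p = 0.0561), and that of the dim germ cell gene Rbm46 (51 to 73 in all mice) without any 1 mouse other than WT6 (adjusted p = 0.0723 to 0.148), with quantile normalization, centred arrays, no filter, no trend or array weights (adjusted p = 0.0567 to 0.108).

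Other splicing regulators of this class did not pass. Rbm5 (-0.07 ± 0.10) and Rbm10 (0.03 ± 0.15), relatives of Rbm6 that act in exon choice, overlapped between the genotypes, as did the heart splicing factor Rbm20, dim at 47 to 62 (0.12 ± 0.08). Rbm8a, of the exon junction complex, read 863, 989 and 931 in knock-in and 857, 539 and 965 in wild-type mice (0.27 ± 0.21), with WT4 far below the others. Rbm15, of the complex that methylates adenosines in RNA, was at -0.24 ± 0.12, and was called lower without KI3 (-0.35, limma adjusted p = 0.0329). Rbm43 (-0.26 ± 0.13) and Rbm12b2 (-0.18 ± 0.12) did not pass. Rbm33 was split by probe set: the brightest missed the threshold (0.29 ± 0.09, adjusted p = 0.0503), the second rose (0.36 ± 0.09, adjusted p = 0.0203) and the dimmest did not pass (-0.18 ± 0.13). With quantile normalization, array weights, no trend or a filter set at the 50th percentile, the brightest was called higher (adjusted p = 0.0353 to 0.0426). The remaining tested genes, Rbm15b, Rbm19, Rbm24, Rbm26, Rbm38, Rbm42 and Rbm45, had log2 changes from 0.00 to 0.31, and Rbm11, Rbm44 and Rbm8a2, at 35 or less in every mouse, were too dim to be tested.

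Knock-in mice differed from each other in how far each class lay from the controls. Over all 86 members the median deviation from the wild-type mean was 0.27, 0.22 and 0.26 on the log2 scale in KI1, KI3 and KI5 and 0.01, -0.05 and 0.04 in WT2, WT4 and WT6. Over all probe sets tested it was -0.01, 0.04 and 0.05 in the knock-in mice. For the Rbm genes the knock-in medians were 0.31, 0.27 and 0.36, and for the CLK kinases 0.74, 0.55 and 0.58, all above every wild-type median. For SR proteins they were 0.21, 0.26 and 0.01, so KI5 lay inside the wild-type range of -0.05 to 0.03. That mouse had the lowest knock-in values of Srsf1, Srsf2, Srsf4 and Srsf6. PRP factors were at 0.25, 0.09 and 0.22, with KI3 nearest to the controls. These medians are descriptions and were not tested.

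**Figure D4:**
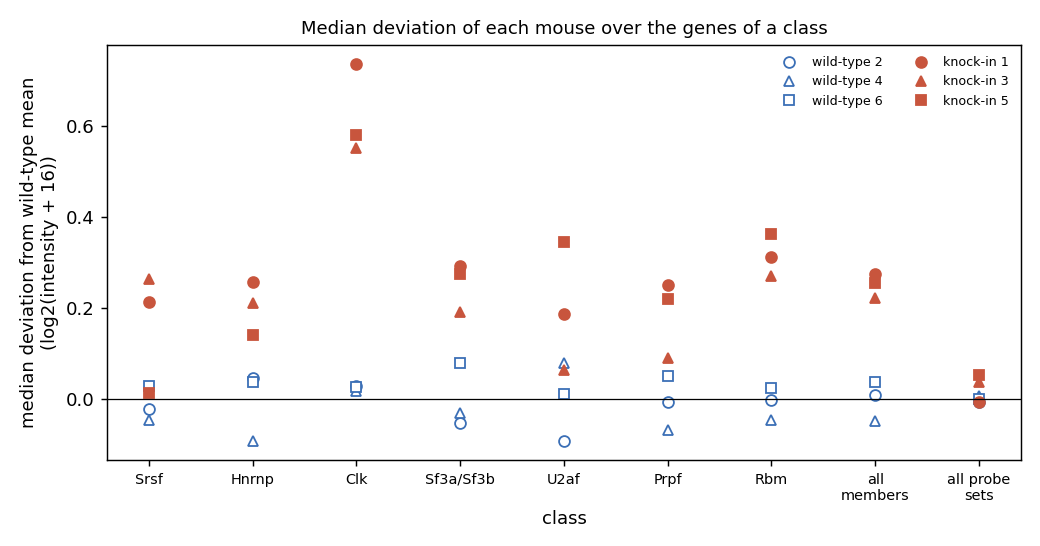
Median over the tested genes of each class of the difference between a mouse and the wild-type mean, on the log2(intensity + 16) scale, with wild-type mice as open and knock-in mice as filled symbols. Knock-in mice lie above wild-type mice in the Clk, Rbm, Hnrnp, Sf3a/Sf3b and Prpf classes, and KI5 lies among the wild-type mice for Srsf.

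Other lists of splicing and related genes, 2 of which hold 1 or 2 members each, were read against the 13.0% of genes called higher and 13.7% lower. In 6 of the 8 lists more genes rose than fell. The lists were chosen with earlier results of these data known, so this count is a description. Among SR-related proteins and exon junction partners, 12 of 24 rose and 1 fell (Srek1ip1), with a median log2 change of 0.31. Tra2b, an activator of exon inclusion, read 2930, 2449 and 2460 in knock-in and 1158, 1081 and 1418 in wild-type mice (1.09 ± 0.13, limma adjusted p = 0.00165), and the U1-associated gene Luc7l (0.82 ± 0.12), Bclaf1 (0.61 ± 0.10) and the matrix protein gene Srrm1 (0.72 ± 0.13) rose without overlap. Without KI1, 7 rose, and the fall of Srek1ip1 was lost without KI1, KI5, WT2 or WT6. Of the Prp19 complex and catalytic step factors, 12 of 28 rose and 1 fell (Ppil1), with a median of 0.29. Cdc40, a second-step factor, read 1331, 1346 and 1377 against 681, 647 and 712 (0.98 ± 0.09, adjusted p = 0.000671), and Ik (0.87 ± 0.09), Wbp11 (0.63 ± 0.11) and Bcas2 (0.58 ± 0.12) rose too. The 12 became 3 without KI1, 4 without WT2 or WT6 and 5 without WT4, the fall of Ppil1 was lost without KI1, KI5, WT2 or WT6, and the call of Bcas2 was lost without KI1 (adjusted p = 0.0517).

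Of 26 snRNP proteins and their partners outside the Sm and LSm rings, 5 rose and 0 fell (median 0.10), led by the branch point reader Sf1 (1.10 ± 0.15) and the helicase gene Dhx15 (0.79 ± 0.11), with Snrpb2 (0.32) also higher. Snrpa1 (0.61 ± 0.13) and Eftud2 (0.60 ± 0.14) lost their calls without KI1 (limma adjusted p = 0.0538 and 0.0663), and Eftud2 also without WT2 (adjusted p = 0.0604). The count was 2 without KI1, 3 without WT2 and 8 without KI3, and 2 fell without WT4. Of 29 Sm and LSm ring proteins and assembly factors, 4 rose and 4 fell (median -0.01). Lsm8 (1.01 ± 0.12), Ddx20 (0.85 ± 0.12), Prmt5 (0.55) and Smn1 (0.53) rose, Gemin2 (-0.64) and Gemin7 (-0.44) fell, and Lsm2 (-0.53 ± 0.10) and Lsm10 (-0.69 ± 0.15) fell, the last lost without KI1, WT2 or WT4 (adjusted p = 0.0515 to 0.0565). With single mice left out the counts fell to as low as 2 higher and 1 lower, at their lowest for both without KI1 or WT2. Without KI5 or WT6 they were 2 and 2, and without WT4 2 fell.

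Kinases and phosphatases listed beside the CLK family for a possible part in SR protein regulation split by gene. Whether each of them acts on SR proteins was not tested. Of the 19 listed, 6 rose and 2 fell, with a median log2 change of 0.20. Hipk3 read 4270, 4277 and 5140 in knock-in and 2225, 2548 and 2243 in wild-type mice (0.96 ± 0.11, limma adjusted p = 0.00129), and its relative Hipk2 fell, reading 958, 1165 and 999 against 2095, 2657 and 2134 (-1.13 ± 0.13), as did Dyrk1b (-0.52). Its relative Dyrk1a rose (1.02). The phosphatase subunit genes Ppp1cb (0.65 ± 0.08) and Ppp2cb (0.73 ± 0.12) rose. Srpk1, Srpk2 and Srpk3, the cytoplasmic SR protein kinases, did not pass. Without KI1 or WT2, 1 of the list fell.

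Among 43 tested genes of other splicing regulators, 2 of them members (Hnrnpll and Hnrnpdl), 14 rose and 2 fell, with a median of 0.22. The largest rise was that of Cirbp (1.77), which is counted again among the cold- and heat-responsive genes below. Ptbp2, a paralog of the polypyrimidine tract binding protein Ptbp1, read 1247, 1118 and 1383 in knock-in and 502, 341 and 453 in wild-type mice (1.51 ± 0.16, limma adjusted p = 0.0011). Rbpms read 2267, 1713 and 2724 against 711, 898 and 721 (1.49 ± 0.18) and Fxr2 rose by 0.80 ± 0.10, while Ddx17 (-1.01) and Khdrbs3 fell. The count that rose was 9 with centred arrays and also 9 without KI1, WT4 or WT6. Of 12 factors of nonsense-mediated decay, which removes many transcripts with unproductive splicing, 4 rose and 0 fell (median 0.29). Smg1, the kinase of that pathway, read 4109, 2922 and 4893 against 1027, 1052 and 1248 (1.80 ± 0.19, adjusted p = 0.00108), Smg6 rose by 0.70 ± 0.10 and Etf1 by 0.65 ± 0.09, and Smg8 (0.50 ± 0.11) lost its call without WT2 (adjusted p = 0.053).

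**Figure D5:**
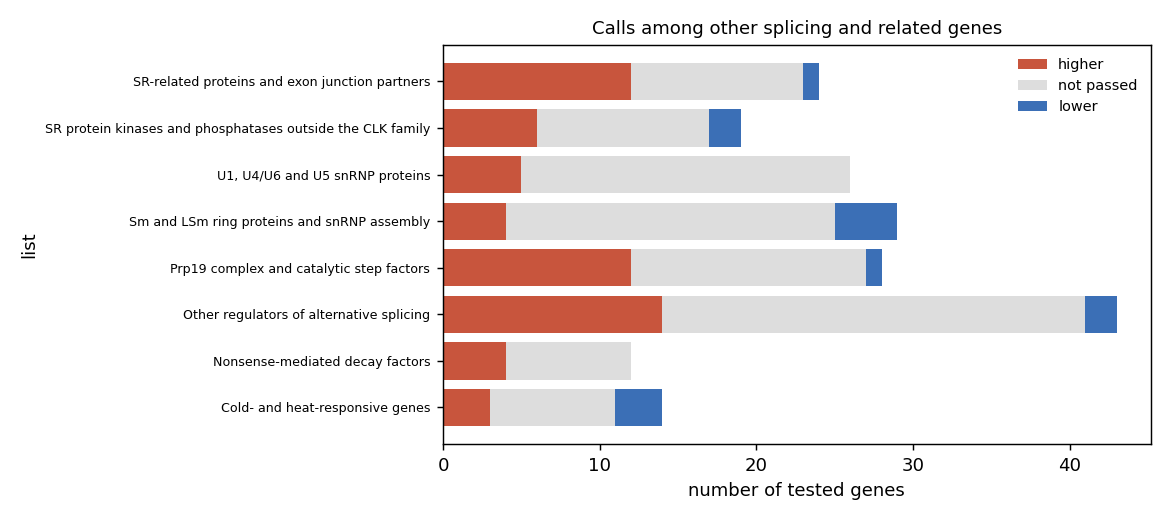
Number of tested genes called higher (red), lower (blue) or not passed (grey) in 8 lists of other splicing and related genes. Red exceeds blue in 6 lists, with 12 against 1 for both SR-related proteins and the Prp19 complex, and both counts are equal for Sm and LSm proteins (4 and 4) and for cold- and heat-responsive genes (3 and 3).

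Rbm3 was set beside the other genes known to respond to temperature. Cirbp, the other well-known cold-inducible RNA-binding protein, read 1267, 990 and 1623 in knock-in and 309, 414 and 369 in wild-type mice, a log2 change of 1.77 ± 0.19 (limma adjusted p = 0.0012). Its genotypes did not overlap, and KI3 was the lowest of its group for Cirbp as for Rbm3. Of the 14 genes of the list, 3 rose (Cirbp, Rbm3 and the small heat shock protein gene Hspb8, 0.72 ± 0.11) and 3 fell (median -0.14). Those that fell were Hsf2, a heat shock transcription factor, at 275, 346 and 182 against 825, 523 and 661 (-1.29 ± 0.25, adjusted p = 0.0085), and the chaperone genes Dnaja1 (-0.71 ± 0.17) and Hsph1 (-0.73 ± 0.21). Of these 3, 1 was called without WT6. No body temperature is given in the labels.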

How the data were processed

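Liver RNA of 3 knock-in and 3 wild-type mice was hybridised to 1-colour arrays, labelled with biotin by in vitro transcription per the labels' protocols. The authors deposited linear intensities, 1 per probe set and array, with summarisation and normalization not given in the sources used here. The 6 columns were matched to mice by sample identifier. Intensities were taken as log2(value + 16), so folds are on that scale and understate changes of dim genes. After dropping probe sets whose mean was below the 25th percentile (38.7), 26664 were fitted with limma 3.58.1 in R 4.3.3 (lmFit, eBayes with trend), with Benjamini-Hochberg adjustment over all of them and a threshold of 0.05. Symbols came from the platform annotation (21789 probe sets with 1 symbol, 1621 with several, 12102 not listed), and a gene was represented by its brightest probe set. Probes of families with close copies may cross-hybridise. Log2 changes carry standard errors or 95% intervals. Each array is 1 mouse by its label, and arrays carry no read depth, so their number limits the precision.

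The members and lists were chosen with earlier results of these data known. Named are Lmna, all Srsf, Clk, Sf3a, Sf3b and U2af genes, the 6 Hnrnp, Prpf and Rbm genes with the smallest p in each direction, some named for their role, those whose probe sets differ, and the 4 with the smallest p of each other list. Other called genes were named after their values were seen, where 8 or fewer were counted. Alternatives were pseudocounts of 1 and 64, quantile normalization, centred arrays, no filter or the 50th percentile, no trend, a robust prior, array weights, the mean of a gene's probe sets, a 1.5-fold threshold and each mouse left out. The fit was run on simulated data with few changed probe sets, each changed by at least 2-fold. Most called members changed by less, so that run does not show how well changes of their size are recovered. Promoter sequences are RefSeq's for GRCm38.p6 and 74 of 89 members matched. Figures were drawn with matplotlib 3.10.9.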

Additional observations from a re-analysis of the deposited data

How the results depend on the processing

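No paired analysis was possible because the genotypes share no replicate number. The direction of each of the 31 called members was the same under every alternative, and 21 kept their call in all 16 refits. With centred arrays, 2 members fell, 1 hnRNP gene rose and 1 PRP factor fell. With the filter at the 50th percentile, 2 members and 1 PRP factor fell. With array weights, 2 members and 1 PRP factor fell, and 5 hnRNP and 4 SF3 genes rose. With eBayes without trend, 5 SF3 genes rose. With at least 1.5-fold required, 15 members rose: 1 SR protein, 0 hnRNP genes, 2 CLK kinases, 1 SF3 gene, 1 U2AF subunit, 2 PRP factors and 8 Rbm genes. With each mouse left out in turn, 21 to 33 members rose and 1 to 2 fell, 0 to 4 hnRNP genes, 1 to 4 SF3 genes and 2 to 4 PRP factors rose, and 1 to 2 Rbm genes fell. Single changes were followed under the alternatives for 70 genes, Lmna among them, and not for every member. Uncalled members with changes near 0, such as Rbm38, Prpf31 and Prpf40b, were not followed. Among the genes followed, signs turned only for uncalled changes near 0. With quantile normalization they were -0.037 for Srsf12, 0.035 for Srsf2, -0.0087 for U2af1l4 and -0.0083 for Rbm10. With centred arrays they were -0.042 for Srsf12, -0.028 for U2af1l4, -0.047 for Hnrnpa2b1 and -0.024 for Rbm10, and with array weights -0.018 for Hnrnpa2b1 and -0.036 for Rbm10. With single mice left out they ranged from -0.015 to 0.132 for Sf3b6, -0.028 to 0.073 for Srsf12, -0.036 to 0.012 for Srsf2, -0.022 to 0.063 for U2af1l4, -0.033 to 0.029 for Hnrnpa2b1 and -0.10 to 0.157 for Rbm10. The cause of these changes was not tested. Dim members such as Srsf12, Rbm20 and Rbm46 lie near the filter, where the added 16 shrinks a change.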
